A study of Homo sapiens with 12 samples.

Results

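The comparison described here sets 4 arrays of MDA-MB-231 cells depleted of both HIF alpha subunits against 4 arrays of control cells, or 8 of the 12 arrays of the series, chosen by their titles. MDA-MB-231 is a human cell line established from metastatic breast cancer. The shHIF cells carried a retroviral construct with small-hairpin RNA directed at HIF1a and HIF2a, and the control cells a retroviral hairpin against GFP. All cells grew in DMEM/F12 with serum and glutamine under normal conditions, and the replicates, lettered A to D, are called biological in the labels without a statement that they came from separate cultures or infections. The p-values below therefore measure the spread between arrays, which may be technical. For limma that spread was pooled over all 12 arrays, which include 4 arrays titled Sharp1, a group not compared here. The sources used here do not say whether 1 clone or a pool of infected cells was studied, and give no hairpin sequences.

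Hypoxia-inducible factors are pairs of an oxygen-regulated alpha subunit, HIF1 alpha (gene HIF1A) or HIF2 alpha (gene EPAS1), and the stable partner ARNT. When oxygen is ample, prolyl hydroxylases of the EGLN family mark the alpha subunits, and the VHL ubiquitin ligase sends them to the proteasome. When they escape this, the pairs bind a short DNA core in promoters and enhancers and raise genes of glucose use, vessel growth, mitophagy, matrix remodelling and their own feedback. HIF1 alpha is known for the glycolytic genes, HIF2 alpha more for growth factors, iron uptake and erythropoietin, and in breast carcinoma both have been tied to invasion and metastasis.

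Values are log2 signals, so a difference of 1 is 2-fold. Of 19775 genes tested with limma, 3482 were called higher in shHIF cells at an adjusted p under 0.05 (17.6%) and 2613 lower (13.2%), 30.8% in all. These shares are the background for the counts below. Most changes were small: the median called change was 0.30, and 44 genes rose (0.223%) and 85 fell (0.43%) at least 2-fold. The 4 shHIF arrays lay wholly above the control arrays for 16.3% of genes and wholly below them for 12.3%. Bright genes were called more often, with 30.2% higher and 25.4% lower in the brightest decile of genes against 2.17% and 0.961% in the dimmest. The median difference over all genes was 0.047. Each gene was read on its brightest probe set. Averaging all probe sets of a gene made the difference over 1.5 times smaller for 89 of the 270 called genes named here or by rule, and using the brightest probe set outside the kinds that can bind related transcripts, called the alternative probe set below, did so for 36. Hybridisation spike-ins are bacterial and bacteriophage transcripts added to the labelled sample. They averaged 10.39 on shHIF A and 10.45 on shHIF D, against 10.69 and 10.63 on shHIF B and C. On the control arrays they averaged 10.69 to 10.81. The group difference had an exact two-sided permutation p of 0.0571 (adjusted p = 0.114 over 6 quality measures, smallest possible p 0.0286). Actin signal at the 3′ minus the 5′ end, a sign of RNA quality, reached 0.90 to 0.94 on 3 shHIF arrays and 0.62 on shHIF D, against 0.59 to 0.74 in control (permutation p = 0.114, exact). PolyA spike-ins, added before labelling, averaged 6.42 to 6.61 in shHIF and 6.68 to 7.05 in control arrays (exact permutation p = 0.0286, adjusted p = 0.0858). Beyond the values given with and without arrays A and D, the part of these signals in the results was not tested.

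The cells were checked against markers of the line. VIM, CAV1, AXL, MSN, CD44 and CAV2, typical of its mesenchymal-like state, read 14.48, 13.19, 13.18, 12.81, 12.04 and 12.07 in control cells, near the top of the range. ZEB1 and SNAI2, also on this list, are not among these, and the lowest listed marker read 9.96. Of the 8 such markers VIM, CAV1 and CAV2 were called lower in shHIF cells (by 0.26, 0.28 and 0.40), or 37.5% against 13.2% of all genes, and SNAI2 higher (by 0.36). CDH1, ESRP1 and PGR, of epithelial and hormone-responsive breast cells, read 4.06, 3.94 and 3.48, below the median probe set (5.41). The other 3 of the 6 markers listed as low, ESR1, EPCAM and GATA3, read 6.27, 9.54 and 8.57, above that median. Against the median over genes, each read on its brightest probe set (6.58), ESR1 lay below. EPCAM and GATA3 lay above it too, and so did not behave as listed. EPCAM was called lower by 0.34 and GATA3 higher by 0.25, the first not with arrays B and C of both groups only and the second not on its alternative probe set. Over the 5 measured leukocyte markers the mean signal ran from 5.01 to 5.16 in control and 4.88 to 5.12 in shHIF arrays, with PTPRC called higher by 0.37 and LYZ, lysozyme, called lower by 0.72 (from 5.82 to 5.09). The LYZ call was lost with arrays B and C of both groups only and on its alternative probe set. For the 6 fibroblast markers the mean signal ran from 5.01 to 5.13 and from 5.15 to 5.26, with 2 called higher, COL3A1 (3.93 in control) and PDGFRA (3.88). Neither was called with arrays A and D or B and C of both groups only, or with probe sets averaged. The part of these marker shifts in the results was not tested. Of the 4 endothelial markers, with means of 4.92 to 5.09 and 5.06 to 5.21, 0 were called.

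The depleted transcripts came first. EPAS1 read 9.49, 9.55, 9.48 and 9.60 on control arrays A to D and 6.40, 6.83, 6.77 and 6.72 on shHIF arrays A to D. Every shHIF array was far below every control array, and array A was the lowest. The fall was 2.85 (SE 0.071, limma adjusted p = 3.66e-19, n = 4 per group), which left 13.8% of the control signal. The other 2 EPAS1 probe sets read near background in both groups, at 3.99 and 3.22 in control, and showed no call, so that the mean of all 3 probe sets differed by -0.95. HIF1A, a bright transcript, read 12.80, 12.80, 12.79 and 12.75 in control and 11.99, 12.10, 12.08 and 12.04 in shHIF cells. Its groups were also separate, with a fall of 0.73 (SE 0.034, limma adjusted p = 2.47e-14) and 60.2% of the signal left. Depletion at the transcript level was thus deep for EPAS1 and partial for HIF1A, and the arrays measure transcripts only.

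ARNT, the partner of both alpha subunits, was lower as well. It read 7.56, 7.54, 7.53 and 7.51 in control and 6.63, 7.15, 7.24 and 7.02 in shHIF cells, a fall of 0.53 (SE 0.094, limma adjusted p = 9.04e-05). Array A held the lowest value, and the difference was -0.71 over arrays A and D and -0.35 over B and C, or -0.27 with its probe sets averaged. Among 20 measured genes of the alpha subunits, their partners and the oxygen-sensing machinery, 4 were called lower and 4 higher, shares near the background. Besides EPAS1, HIF1A and ARNT, EGLN1, the main HIF prolyl hydroxylase, was called lower by 0.14, a call lost without control D, shHIF A or shHIF D, and it turned to 0.067 as the mean of its probe sets. SIAH2 (0.19), a ubiquitin ligase acting on the hydroxylases, ELOC (0.19) and ELOB (0.11), adaptors of the VHL ligase, and HIF1AN (0.14), the asparaginyl hydroxylase, were called higher by small amounts. The SIAH2 call was lost without control B, control C or shHIF D, that of HIF1AN without control A, B or C or shHIF A or D, and that of ELOC on both alternative choices of probe set. The remaining 12 members did not pass the test: EGLN2 and EGLN3 differed by 0.17 and -0.022, VHL by -0.012, CUL2 and RBX1 of its ligase by -0.11 and -0.0098, HIF3A by 0.13, ARNT2 by -0.026, the coactivators EP300 and CREBBP by -0.14 and -0.12, CITED2, which competes with HIF for them, by -0.023, SIAH1 by -0.064 and OS9 by 0.13.

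**Figure D1:**
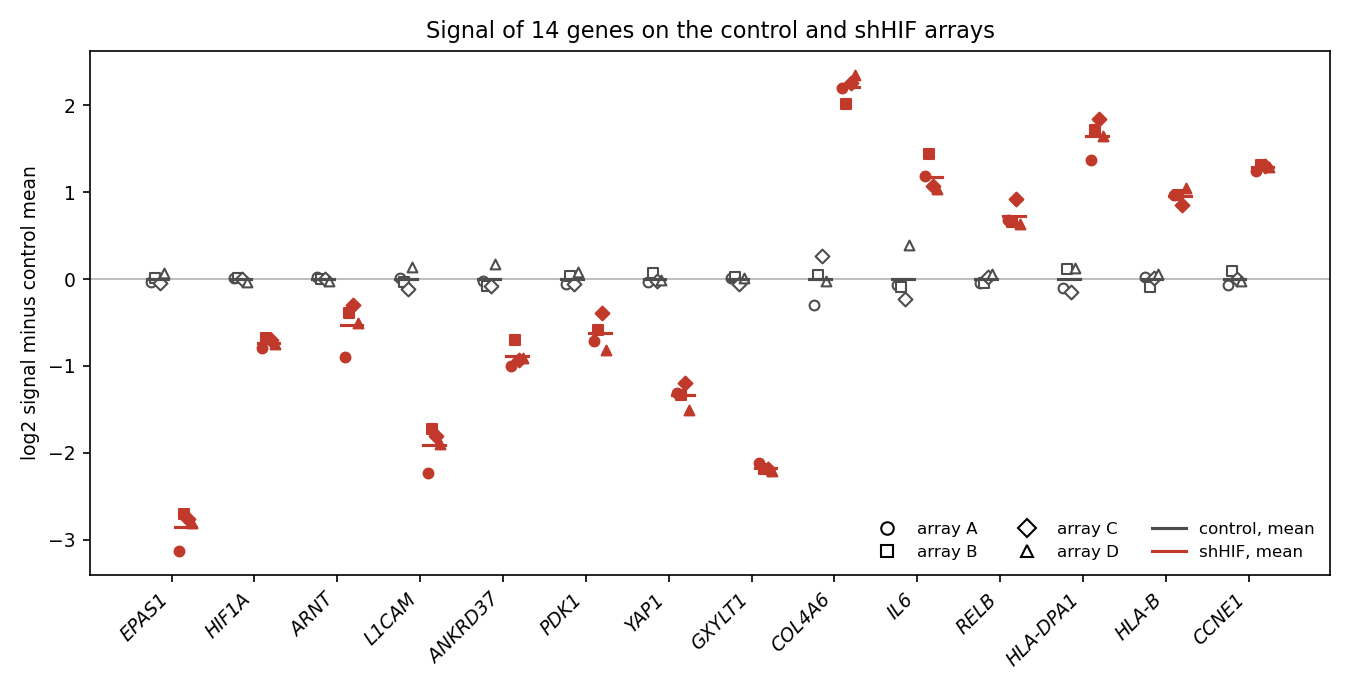
Log2 signal of 14 genes minus the mean of the 4 control arrays, with 1 point per array (shape gives the letter), control open and shHIF filled, and a line at each group mean. EPAS1 sits about 2.85 below control and HIF1A about 0.73, and in each of the 14 genes the groups do not overlap.

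Of 85 measured genes from 5 lists of direct HIF targets, 32 fell and 11 rose in shHIF cells, 37.6% and 12.9%, against 13.2% and 17.6% of all genes. In the brightest decile of all genes 25.4% were lower and 30.2% higher. The targets read from 4.44 to 14.34 in control cells. Their median difference was -0.054, against 0.047 over all genes, and 42 members were not called. With shHIF arrays B and C alone against all controls 32 were called lower and 11 higher, and with A and D alone 33 and 14. With A and D of both groups only, the count of rises was 5. In 4 of the 5 roles falls outnumbered rises, and their sizes were mostly under 1.

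The promoters of the targets that fell were searched for the letters a HIF pair reads. The core of the hypoxia response element, ACGTG or GCGTG, was looked for on both strands in RefSeq promoters of GRCh38.p14, each 300 bases long with 250 before and 50 after a start. ACGTG is also part of the E-box CACGTG that clock, MYC and DEC proteins bind. Of the 32 targets called lower, 25 had a promoter in the table and 22 of these held the core in at least 1 of their windows. Counted over windows, 73% of those of the lowered targets held it, 69.2% of those of the raised targets, 83.9% of those of the targets not called and 55% of the 21490 windows of all genes. For genes that fell at least 2-fold the share was 52%, and for genes that rose at least 2-fold 39.5%. Median GC content was 69.7% in the windows of lowered targets, 62.7% in all and 52% in those of genes raised at least 2-fold. The 4 windows printed are those of the lowered targets with the largest falls that held the core, and capitals mark each match on either strand. ANKRD37, which encodes an ankyrin-repeat protein, lies at chr4:185396591-185396890 on the plus strand. IGFBP3, a binding protein of insulin-like growth factors, lies at chr7:45921223-45921522 on the minus strand. TGFA, a ligand of the EGF receptor, lies at chr2:70553397-70553696 on the minus strand, and PDK1, a kinase that inhibits pyruvate dehydrogenase, at chr2:172555840-172556139 on the plus strand.
ANKRD37: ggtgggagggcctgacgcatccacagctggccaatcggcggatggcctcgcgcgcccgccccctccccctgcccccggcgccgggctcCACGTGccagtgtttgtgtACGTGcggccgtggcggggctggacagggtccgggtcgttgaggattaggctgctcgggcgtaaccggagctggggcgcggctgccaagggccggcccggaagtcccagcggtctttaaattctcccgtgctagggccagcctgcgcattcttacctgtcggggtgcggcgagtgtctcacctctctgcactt
IGFBP3: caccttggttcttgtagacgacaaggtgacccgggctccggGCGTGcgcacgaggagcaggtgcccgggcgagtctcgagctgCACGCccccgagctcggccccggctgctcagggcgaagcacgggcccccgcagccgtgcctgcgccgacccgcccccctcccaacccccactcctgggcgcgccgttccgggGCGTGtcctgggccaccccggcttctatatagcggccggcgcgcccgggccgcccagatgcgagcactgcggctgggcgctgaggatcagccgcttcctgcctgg
TGFA: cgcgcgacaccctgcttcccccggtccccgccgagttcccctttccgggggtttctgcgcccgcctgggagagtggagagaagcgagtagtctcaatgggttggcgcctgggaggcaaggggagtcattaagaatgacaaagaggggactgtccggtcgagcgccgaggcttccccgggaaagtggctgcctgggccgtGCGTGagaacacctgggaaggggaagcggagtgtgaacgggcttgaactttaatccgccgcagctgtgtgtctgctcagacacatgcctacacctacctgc
PDK1: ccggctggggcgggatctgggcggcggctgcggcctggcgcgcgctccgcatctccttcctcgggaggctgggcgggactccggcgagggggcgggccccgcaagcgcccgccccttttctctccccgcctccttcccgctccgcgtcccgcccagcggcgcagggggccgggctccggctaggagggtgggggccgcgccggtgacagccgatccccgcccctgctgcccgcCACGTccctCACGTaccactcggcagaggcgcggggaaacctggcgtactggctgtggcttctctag
ANKRD37 holds 2 separate matches, IGFBP3 3, TGFA 1 and PDK1 2. L1CAM and LOXL4, which fell more than TGFA and PDK1, held 0 in their windows, which says only that these letters are absent there. ZNF395 and NDRG1, which fell by 1.27 and 1.02, more than all 4 printed genes, had no promoter sequence to search.

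Glucose use was the role with most falls. Of 22 measured genes of glucose entry and glycolysis, 11 fell and 2 rose (median -0.11). PDK1 read 8.26, 8.35, 8.26 and 8.40 in control and 7.61, 7.73, 7.93 and 7.50 in shHIF cells, so all 4 shHIF arrays were lower, by 0.63 on average (SE 0.073, limma adjusted p = 2.35e-07). PGAM1, a lower glycolytic enzyme, fell by 0.44, and PFKFB4 and PFKFB3, which make the activator of phosphofructokinase, by 0.42 and 0.25. Lactate dehydrogenase LDHA fell by 0.20 and PGK1 by 0.18. The transporter SLC2A3 was called lower by 0.29, a call lost without control B, control D, shHIF A or shHIF D, with -0.043 left without shHIF A and D. The platelet-type phosphofructokinase PFKP was called lower by 0.19, with 0.0022 as its averaged value. Averaged values of PDK1 and PFKFB4 were -0.37 and -0.18. The other large transporter, SLC2A1, differed by 0.065, and HK2 and ALDOA by 0.089 and 0.044, with HK2 at -0.15 when averaged. Glycogen synthase GYS1 rose by 0.37 and PFKL, the liver-type phosphofructokinase, was called higher by 0.20, a call lost without control B or shHIF D. Neither was called when only arrays A and D of both groups were used.

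Mitophagy and pH genes numbered 3 lower and 1 higher of 11. BNIP3, a mitophagy receptor of the outer mitochondrial membrane, read 12.25, 12.28, 12.27 and 12.35 in control and 11.74, 11.68, 11.83 and 11.57 in shHIF cells, wholly separate, and fell by 0.58 (SE 0.046, limma adjusted p = 4.07e-10). The carbonic anhydrase CA12 fell by 0.39. BNIP3L, a relative of BNIP3, was called lower by 0.12, a call lost without control B, control D, shHIF B or shHIF D, and MXI1, a MYC antagonist, rose by 0.26.

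Among 15 vessel and secreted factors, 6 fell and 1 rose. The adhesion molecule L1CAM read 9.32, 9.28, 9.20 and 9.45 in control and 7.08, 7.58, 7.50 and 7.41 in shHIF cells, with array A again lowest, a fall of 1.92 (SE 0.081, limma adjusted p = 6.04e-15). IGFBP3 fell by 0.83 and TGFA by 0.64, while VEGFA, the main angiogenic factor, fell by 0.47 and the vasodilator peptide ADM by 0.24. FLT1, a receptor of VEGFA, was called lower by 0.28, a call lost without control A, control C, shHIF B or shHIF C, and read 0.069 on its alternative probe set. With probe sets averaged, L1CAM differed by -1.04 and TGFA by -0.40. CXCR4, a chemokine receptor used in metastasis, rose by 0.15. ANGPTL4, a lipase inhibitor, and EDN1, endothelin, differed by -0.066 and 0.035.

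Matrix genes were evenly divided, 3 lower and 3 higher of 13. The crosslinking oxidase LOXL4 fell by 0.74 (SE 0.076, limma adjusted p = 3.40e-08), the growth factor receptor MET by 0.24 and LOXL2 by 0.22. Averaging gave -0.32 for LOXL4 and -0.066, not called, for LOXL2. TMEM45A rose by 0.33 and the lysyl hydroxylase PLOD2 by 0.26, and both calls were absent with arrays A and D of both groups only. For P4HA2, which hydroxylates collagen, the difference was 0.37 by the brightest probe set but -0.25 when probe sets were averaged, so no direction is given. LOX, PLAUR and MMP14 differed by 0.075, -0.046 and -0.0092, but LOX was called higher at 0.32 when averaged and PLAUR at 0.26 on its alternative probe set.

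Feedback and stress regulators fell for 9 of 24 members and rose for 4. ANKRD37 read 8.51, 8.46, 8.46 and 8.72 in control and 7.53, 7.84, 7.60 and 7.63 in shHIF cells, a fall of 0.89 (SE 0.069, limma adjusted p = 2.75e-10) with no overlap. NDRG1, a stress protein, fell by 1.02, and ZNF395, a transcription factor, by 1.27, although its probe set outside the kinds that can bind related transcripts read -0.16 (adjusted p = 0.343). INSIG2, which restrains sterol synthesis, fell by 0.52, DDIT4, an inhibitor of mTORC1, by 0.33, and the histone demethylase KDM3A by 0.31, with -0.15, not called, as its averaged value. Haem oxygenase HMOX1 went the other way, from 7.34, 7.21, 7.19 and 7.37 in control to 8.19, 8.09, 8.10 and 7.91 in shHIF cells, a rise of 0.80 (SE 0.070, limma adjusted p = 2.37e-09). The clock repressors BHLHE40 and BHLHE41, the latter encoding Sharp1, differed by -0.13 and 0.040, and EGLN3 by -0.022.

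**Figure D2:**
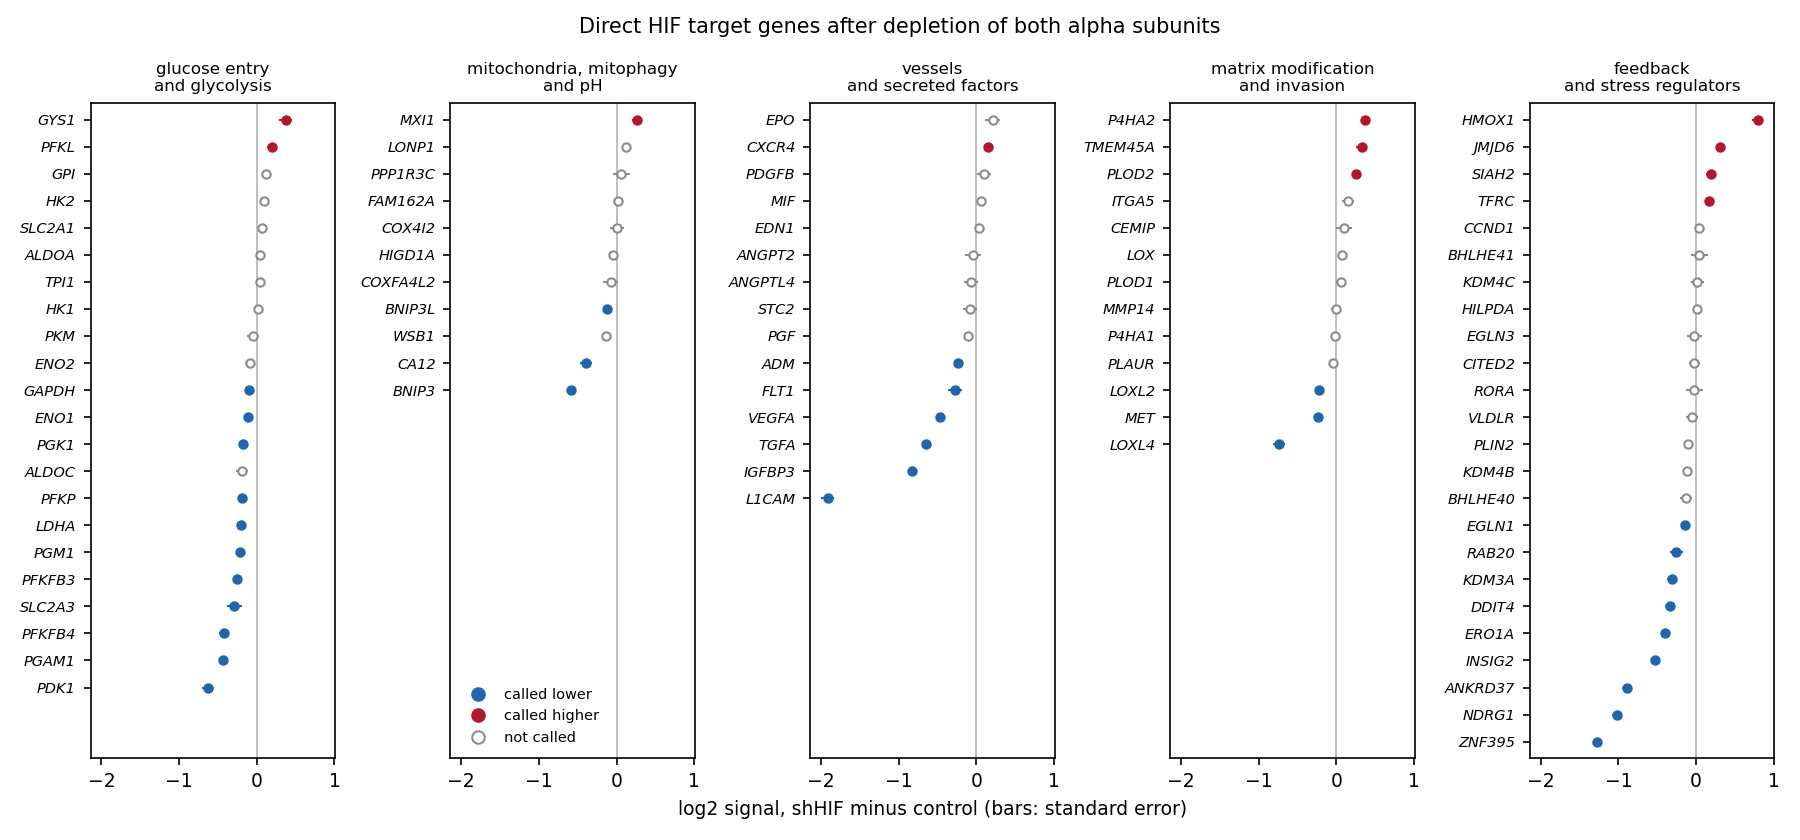
Log2 difference of shHIF minus control for the measured members of 5 lists of direct HIF targets, with standard errors, blue where called lower, red where called higher and open where not called. L1CAM, ZNF395 and NDRG1 lie lowest, and the members not called lie near zero.

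Of 12 measured genes often given to HIF2 alpha, 2 were called lower (16.7%) and 1 higher (8.33%). Of all genes 13.2% were lower and 17.6% higher. The median of the list was -0.016. TGFA was the clear fall. CYBRD1, an iron reductase, was called lower by 0.26 but read 0.16 as the mean of its probe sets, and its fall was -0.14 without shHIF D. IL6, an inflammatory cytokine, rose by 1.18. CCND1 differed by 0.040, VLDLR by -0.052, PLIN2 by -0.11 and SLC11A2, the iron importer, by 0.046. EPO read 5.37 in control, near the median probe set, and differed by 0.21.

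Among the 20 largest falls, genes read from 5.26 (GRB14) to 11.75 (DAZAP2) in control cells. GXYLT1, which adds xylose to Notch receptors, read 9.18, 9.20, 9.11 and 9.19 in control and 7.05, 6.98, 6.99 and 6.96 in shHIF cells. The fall was 2.17 (SE 0.054). YAP1, the coactivator held in check by the Hippo pathway, read 10.95, 11.05, 10.95 and 10.97 in control and 9.67, 9.65, 9.79 and 9.47 in shHIF cells. It fell by 1.34 (SE 0.053, limma adjusted p = 2.67e-15), which left 39.6% of its signal, and 2 of its 3 probe sets were called lower, with an average of -0.85. TMEM30A, the partner subunit of phospholipid flippases, read 10.12, 10.14, 10.15 and 10.09 and then 8.64, 8.72, 8.64 and 8.53, a fall of 1.49 (SE 0.047). The RNA-binding protein NANOS1 fell by 1.51, and both of its probe sets were lower. Further down the order stood RNF141, a RING finger protein (-1.45, on 1 of its 4 probe sets, with an average of -0.39), IMPA2, an inositol phosphatase (-1.39), the actin-binding protein TLNRD1 (-1.38), TMEM87B of the Golgi (-1.37) and GRB14, an inhibitor of insulin receptor signalling (-1.35). DAZAP2 read -1.33 on its brightest probe set and 0.034 on the alternative one, and 3 of its 5 probe sets were lower. The groups were wholly separate in each of these genes because the rule that chose the 20 largest falls required it.

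The 20 largest rises started lower, from 3.79 (COL4A6) to 7.91 (ANXA10) in control cells. COL4A6, a basement membrane collagen chain, read 3.50, 3.85, 4.06 and 3.77 in control and 5.998, 5.81, 6.06 and 6.15 in shHIF cells, a rise of 2.21 (SE 0.11) that starts below the median probe set, so its size rests on a dim reading, and 1 of its 3 probe sets was called (average 0.87). ANXA10, an annexin, started brighter and rose by 1.71, from 7.91 ± 0.15 to 9.62 ± 0.13 (SD, n = 4). ARRDC4, an arrestin relative that limits glucose uptake, rose by 1.47, and the bile acid binding protein FABP6 by 1.44, the latter on 1 of its 3 probe sets with an average of 0.43. SPINK4, a secreted protease inhibitor, rose by 1.42, the selenoprotein SELENOM by 1.40 and the TNF family cytokine TNFSF15 by 1.39. TNFSF15 went from 7.70, 7.56, 7.48 and 7.75 to 8.97, 8.997, 9.03 and 9.06, with every shHIF array over 1 unit above every control array. MMP1, the interstitial collagenase, rose by 1.58, from 6.77 ± 0.03 to 8.34 ± 0.14.

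Antigen presentation genes were called higher far more often than lower. Of 15 measured genes of MHC class I presentation 11 were higher and 2 lower (median 0.34), and of 16 of class II 9 were higher and 0 lower (median 0.31), against 17.6% and 13.2% of all genes. HLA-B read 11.64, 11.52, 11.63 and 11.67 in control and 12.59, 12.59, 12.47 and 12.67 in shHIF cells and rose by 0.96 (SE 0.041, limma adjusted p = 6.05e-15). HLA-C rose by 0.74, and PSMB9 and PSMB8, catalytic subunits of the immunoproteasome, by 0.53 and 0.52. NLRC5, the class I transactivator, rose by 0.43, TAPBP, which loads peptides, by 0.34 and the light chain B2M was called higher by 0.16, against -0.11 on its alternative probe set. TAP2, a chain of the peptide transporter, fell by 0.80 while its partner TAP1 rose by 0.22. Class II transcripts were dim to moderate. HLA-DPA1 read 4.79, 5.01, 4.74 and 5.02 in control and 6.26, 6.60, 6.74 and 6.54 in shHIF cells, and HLA-DRA 6.79, 6.66, 6.65 and 7.08 and 7.90, 8.53, 8.28 and 7.86, rises of 1.65 and 1.34 (SE 0.11 and 0.15). The invariant chain CD74 and the peptide exchangers HLA-DMA and HLA-DMB each rose by 0.70, and HLA-DPA1, TAP2 and CD74 differed by 1.08, -0.44 and 0.26 with probe sets averaged. CIITA, the class II transactivator, differed by 0.18 and did not pass the test. HLA genes are alike in sequence, so the signal of each may hold some of its relatives. Of the 5 leukocyte markers, PTPRC was called higher from a dim 4.01, a call lost without control C, LYZ was called lower as given above, and CD14, CD3E and ITGAM were not called.

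NF-kB genes had a like share of rises. Of 19 measured subunits and feedback genes, 13 were higher and 3 lower (median 0.24). RELB, the subunit of the noncanonical arm, read 6.60, 6.59, 6.65 and 6.70 in control and 7.32, 7.29, 7.55 and 7.27 in shHIF cells and rose by 0.72 (SE 0.088, limma adjusted p = 4.79e-07). The inhibitors NFKBIE and NFKBIA rose by 0.77 and 0.55, although NFKBIA read 0.027, not called, on its alternative probe set. Rises were also called for the adhesion molecule ICAM1 (0.73), the deubiquitinase TNFAIP3 (0.51) and NFKB2 (0.31). SOD2, the mitochondrial dismutase, fell by 0.54 and the nuclear inhibitor NFKBIZ by 0.47, or -0.30 without shHIF A and D. Among 22 cytokines and chemokines 9 rose and 1 fell. IL6 read 5.94, 5.93, 5.79 and 6.40 in control and 7.20, 7.45, 7.08 and 7.05 in shHIF cells, with control D nearest to the shHIF arrays and no overlap, a rise of 1.18 (SE 0.11, limma adjusted p = 8.98e-09). IL24 rose by 1.40, IL32 by 0.94, the neutrophil attractant CXCL8 by 0.89, and CXCL1 and CXCL2 by 0.57 and 0.48, with CXCL2 at 0.15, not called, on its alternative probe set. TNF, IL1B and IL11 differed by -0.052, -0.094 and -0.049, and IL11 was called higher at 0.16 when averaged.

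Interferon-stimulated genes were divided. Of 30 measured, 11 rose and 6 fell (median 0.069). IFI27 rose by 0.89, ISG20 by 0.84 and ISG15, a ubiquitin-like modifier, by 0.52, whereas IFIT3, an antiviral RNA-binding protein, fell by 0.76. IFIT1 fell by 0.31, a call lost without shHIF A and D. Of the double-stranded RNA sensors, EIF2AK2 fell by 0.20 and RIGI was not called.

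**Figure D3:**
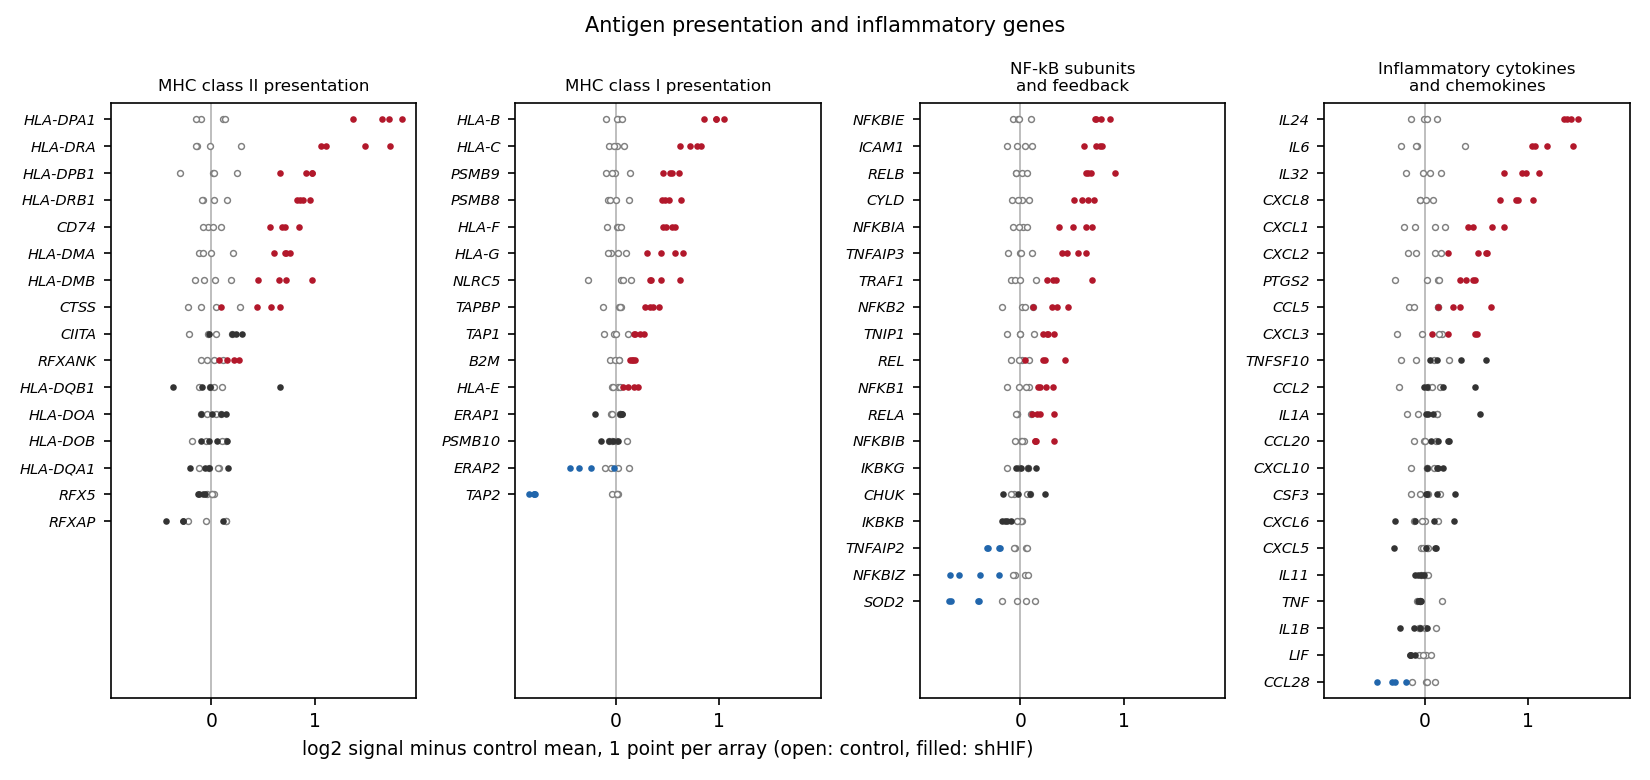
Log2 signal minus the control mean for genes of MHC class II and class I presentation, NF-kB and cytokines, with 1 point per array, control open and shHIF filled, red where called higher, blue where called lower and black where not called. HLA-DPA1, HLA-DRA, IL24 and IL6 lie farthest to the right and TAP2 farthest to the left.

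Targets of the Hippo coactivators were called lower more often than higher. Of 20 measured YAP and TAZ targets, 10 fell and 4 rose (median -0.085). AJUBA, a LIM protein, read 12.51, 12.67, 12.54 and 12.51 in control and 11.75, 11.75, 11.77 and 11.69 in shHIF cells, and fell by 0.82 (SE 0.038, limma adjusted p = 3.51e-14). The matricellular proteins CCN2 and CCN1 fell by 0.61 and 0.33, tissue factor F3 by 0.35 and ANKRD1 by 0.29. LATS2, the kinase that restrains YAP, rose by 0.42 (average 0.17) and GADD45A by 0.49. The DNA-binding partners TEAD1 and TEAD4 differed by 0.032 and 0.062.

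Adhesion receptors were lower more often than higher. Of 21 measured integrins 10 fell and 3 rose. ITGB2, the beta chain of leukocyte integrins, read 7.73, 7.67, 7.66 and 7.90 in control and 6.10, 6.06, 6.16 and 6.06 in shHIF cells, and fell by 1.64 (SE 0.094). ITGA6, ITGAV and ITGA2, which pair with other chains to bind laminin, RGD ligands and collagen, fell by 0.62, 0.54 and 0.51, and ITGB1, the common beta chain, by 0.16, with -0.073, not called, as its average. ITGB4 fell by 0.87 on its brightest probe set and read -0.0039 on the alternative one. ITGB8, which frees latent TGF-beta, rose by 1.04, from 6.89, 7.14, 7.01 and 6.95 to 7.90, 8.11, 8.29 and 7.86, wholly separate, with an average of 0.46 over its 5 probe sets.

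Basement membrane genes numbered 5 lower and 3 higher of 18. COL4A1 fell by 0.52 while COL4A6 rose, and the laminin chains LAMA5, LAMB1 and LAMB2 fell by 0.46, 0.44 and 0.40. COL4A5, the chain that assembles with COL4A6, was called higher by 0.88 on its brightest probe set and read -0.018 on the alternative one. For other collagens 5 of 13 fell and 3 rose, with COL12A1 at -0.80, COL8A1 at -0.60 and COL5A1 at 0.50, all called, the last at 0.20 on its alternative probe set. Of 22 metalloproteinases and inhibitors 3 rose and 2 fell, below the background shares. TIMP3, an inhibitor stored in the matrix, fell by 0.61 on 1 of its 4 probe sets, with an average of -0.18, and MMP2 and MMP9 differed by 0.073 and 0.076.

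Epithelial junction and keratin genes fell for 11 of 30 members and rose for 1, the tight junction protein CLDN1 (1.54). KRT19, an intermediate filament of simple epithelia, read 11.71, 11.65, 11.70 and 11.84 in control and 10.58, 10.67, 10.63 and 10.51 in shHIF cells, and fell by 1.13 (SE 0.055, limma adjusted p = 6.74e-14). The desmosomal cadherins DSC2 and DSG2 fell by 1.04 and 0.44. Averaging gave -0.56 for KRT19 and -0.64 for DSC2. Of 20 mesenchymal genes 7 fell and 3 rose: VIM, the intermediate filament of mesenchymal cells, and CAV2 fell as given above, with VIM at -0.39 when averaged and CAV2 at -0.80 on its alternative probe set, while VCAN, a matrix proteoglycan, rose by 0.90 and the repressor SNAI2 by 0.36. ZEB1 differed by -0.066. So members of both lists fell, and CDH1 differed by -0.064 near background.

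S100 calcium-binding proteins fell for 7 of 15 and rose for 1. S100A2 read 11.44, 11.39, 11.41 and 11.53 in control and 9.91, 9.95, 9.99 and 9.95 in shHIF cells, and fell by 1.49 (SE 0.047). S100A3 fell by 0.75, S100A4, a metastasis-linked member, by 0.37, and S100A11 rose by 0.22. Of 25 genes selected for metastasis in this line in earlier studies, 12 rose and 7 fell. MMP1, KYNU (0.74), a kynurenine pathway enzyme, IL13RA2 (0.57) and PTGS2 (0.42) were among the rises. L1CAM, the actin bundler FSCN1 (-0.85) and CCN2 were among the falls. ST6GALNAC5, a sialyltransferase, was called higher by 0.90 on its brightest probe set and read 0.14 on the alternative one. For 23 TGF-beta pathway genes 10 rose and 4 fell, with ID3 at 0.66, ID2 at 0.65, LTBP1, a carrier of latent TGF-beta, at 0.52 and SMAD7 at 0.36, and TGFB1 differed by -0.042.

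Mitochondrial genes were called in unlike directions in the respiratory chain and the citrate cycle, with medians near zero. Of 36 oxidative phosphorylation subunits 14 were higher (38.9%, against 30.2% of the brightest decile of genes) and 2 lower. Their median was 0.068, against 0.047 over all genes. Rises ran from 0.094 to 0.26, among them COX6B1 (0.20) and COX6A1 (0.17) of complex IV. The largest, NDUFA2, read -0.041, not called, on its alternative probe set. Of 15 genes of the tricarboxylic acid cycle 7 were lower and 1 higher (median -0.069). The median of these was -0.013 over shHIF A and D and -0.0079 over B and C. DLD (-0.36), a subunit of the pyruvate and oxoglutarate dehydrogenases, led the falls. SUCLA2, a chain of succinyl-CoA ligase, fell by 0.25 and SDHA, of complex II, by 0.19. The SUCLA2 call was absent with arrays B and C of both groups only.

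Iron and haem genes fell for 7 of 14 members and rose for 3. SLC40A1, the iron exporter ferroportin, fell by 0.67, NCOA4, which delivers ferritin to lysosomes, by 0.50 and STEAP3, an endosomal iron reductase, was called lower by 0.32, a call lost on its alternative probe set (-0.25). SLC40A1 differed by -0.44 without shHIF A and D and by -0.32 when averaged. HMOX1 rose as given. TFRC, the transferrin receptor, was called higher by 0.16, a call lost with its probe sets averaged (0.15), and FTL, ferritin light chain, by 0.10, a call lost with arrays A and D of both groups only and without the variance trend. For 19 NRF2 targets 11 rose and 4 fell. AKR1C3, AKR1C1 and AKR1C2, ketosteroid reductases, rose by 0.86, 1.30 and 1.17, and TXNRD1, thioredoxin reductase, by 0.33 (average 0.17). AKR1C1 and AKR1C2 are near-identical copies, and on the alternative probe sets they read 0.022 and 0.0033, not called. NQO1, a classic NRF2 target, fell by 0.27, and KEAP1, the restraint of NRF2, by 0.18. NFE2L2, the gene of NRF2, was called lower by 0.15, a call lost without control B.

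Sterol and fatty acid genes went both ways, 8 lower and 5 higher of 21. INSIG1, which retains the SREBP processing complex in the endoplasmic reticulum, read 10.11, 10.17, 9.96 and 9.98 in control and 8.76, 8.56, 8.58 and 8.51 in shHIF cells, and fell by 1.45 (SE 0.063, limma adjusted p = 7.48e-15) on all 3 of its probe sets. SREBF1, a driver of lipid synthesis, fell by 0.69 (average -0.32), ACLY, which makes cytosolic acetyl-CoA, by 0.43 and the desaturase SCD by 0.32 (average -0.095, not called). HMGCS1 and DHCR7, of cholesterol synthesis, rose by 0.33 and 0.31. In the lysosome and autophagy list 15 of 23 rose and 1 fell (median 0.15), with the proteases CTSV and CTSL at 0.81 and 0.56, the autophagosome protein GABARAPL1 at 0.58 and the receptor SQSTM1 at 0.29 (average 0.10, not called). Amino acid and ER stress genes numbered 8 lower and 4 higher of 24. PHGDH, which opens serine synthesis, fell by 0.48 and PSAT1, the next enzyme, by 0.31, while ATF3 rose by 0.72 (average 0.37). PSAT1 differed by -0.16 without shHIF A and D.

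Cell cycle genes showed a few large single changes. CCNE1, the cyclin of the G1 to S step, read 7.88, 8.04, 7.95 and 7.92 in control and 9.19, 9.26, 9.25 and 9.24 in shHIF cells, and rose by 1.29 (SE 0.055, limma adjusted p = 6.04e-15). CCND2, a D-type cyclin, read 6.23, 6.35, 6.20 and 6.27 in control and 7.60, 7.64, 7.57 and 7.69 in shHIF cells, a rise of 1.36 (SE 0.070). With probe sets averaged these differences were 0.72 and 0.63. RRM1, the large subunit of ribonucleotide reductase, fell by 0.76, from 12.45, 12.45, 12.43 and 12.40 to 11.63, 11.70, 11.74 and 11.63, and its partner RRM2 differed by 0.040, not called, and by 0.12, called, when averaged. MCM6, of the replicative helicase, fell by 0.44 while MCM2 (0.020), MCM3 and MCM7 were not called. Over all 27 G1/S genes 8 rose and 6 fell, and over 25 G2/M genes 6 rose and 2 fell, with MKI67, a proliferation marker, at 0.018 and CCNB1 at 0.046, neither called. CDKN1B, a CDK inhibitor, rose by 0.60 and MDM2, the p53 ligase, fell by 0.46 (average -0.17), in a list of 17 inhibitors and p53 targets with 5 rises and 5 falls.

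Smaller lists were as follows. Clock genes fell for 7 of 20 and rose for 1, with the nuclear receptor RORB at -0.74, BMAL2 at -0.46 and CLOCK at -0.22, all called lower. With probe sets averaged RORB differed by -0.30, and BMAL2 (-0.12, adjusted p = 0.0553) and CLOCK (-0.13) were not called, nor was CLOCK without shHIF A and D. The MAX network had 5 of 11 higher and 1 lower, and MYC itself differed by 0.038. Among 27 proteasome subunits, all at 10.33 or more in control cells, 7 were higher (25.9%) and 3 lower (11.1%). In the brightest decile of genes 30.2% were higher and 25.4% lower. PSMB5 led the rises (0.31). Of 12 genes of the RNA interference machinery, which processes the hairpins of both groups, 6 were higher and 3 lower, including XPO5 (0.30), AGO2 (0.29) and DICER1 (0.28), all called higher, and TNRC6B (-0.38), called lower. The DICER1 call was lost without shHIF A and D and with probe sets averaged (0.081). Of 15 flippase and lipid transport genes 5 fell and 2 rose. ATP11B and ATP8A1, catalytic flippase chains that pair with TMEM30A, were called lower by 0.71 and 0.58, and as means of their probe sets they read -0.14 and -0.18, not called. The scramblase ANO6 rose by 0.65 (average 0.32).

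**Figure D4:**
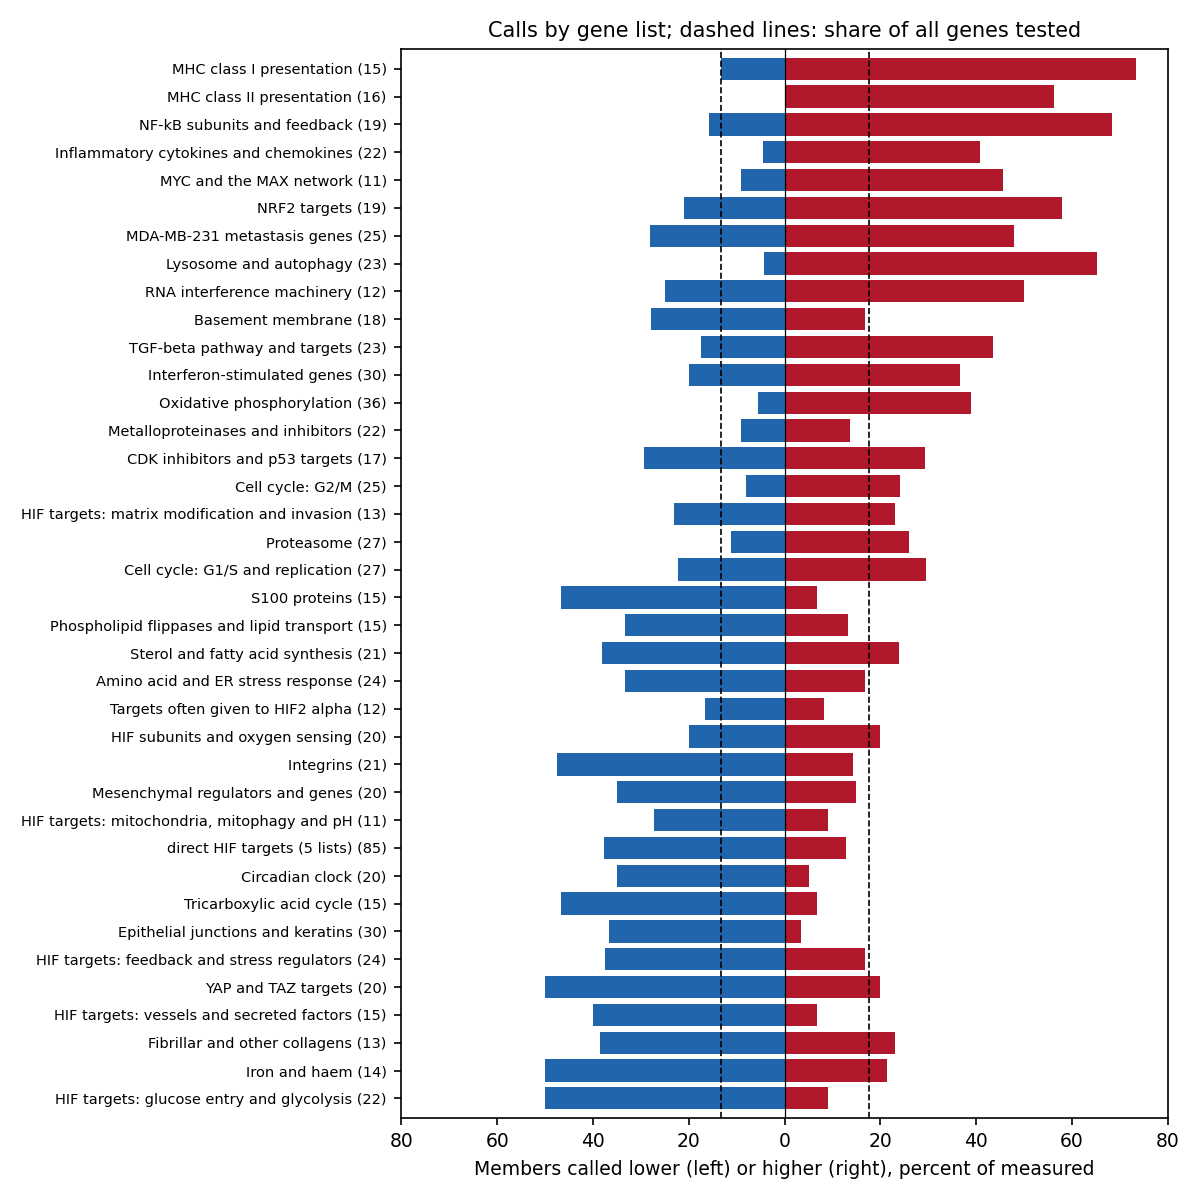
Share of the measured members of each gene list (number in brackets) called lower, to the left, and higher, to the right, ordered by median difference, with dashed lines at the shares of all genes, 13.2% and 17.6%. MHC class I, NF-kB and lysosome genes reach farthest to the right, and glycolysis, iron and YAP targets farthest to the left.

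Some large changes lay side by side in the genome. Of 19738 genes placed in RefSeq order, 4 pairs of neighbours both changed at least 2-fold the same way, and 0 pairs went opposite ways. TFF2 and TFF1, trefoil peptides on chromosome 21, fell by 1.80 and 1.39. ITGB2 and its antisense transcript ITGB2-AS1, also on chromosome 21, fell by 1.64 and 1.62, but ITGB2-AS1 read -0.35 on its alternative probe set (adjusted p = 0.0130), so the like size of the pair rests on 1 probe set. LOXL1, a lysyl oxidase on chromosome 15, fell by 1.16 with LOXL1-AS1 at -1.04, and AKR1C1 with AKR1C2 on chromosome 10 make the only rising pair. Whether signal of a gene and its antisense transcript was told apart by these probe sets was not tested.

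The arrays with low spike-in signal, shHIF A and D, were then read apart from B and C. The 129 genes called with at least a 2-fold change had been chosen on all arrays of both groups, so each set helped to choose them. All were called in the same direction with A and D alone and with B and C alone. The same held in each set of same-lettered arrays of both groups. These sets share no array, but agreement of genes chosen on both is not an independent repeat. The median absolute difference of the 129 genes from control was 1.25 over A and D and 1.13 over B and C. Setting shHIF A and D against control A and D, and shHIF B and C against control B and C, 68.6% of all 19775 genes had the same sign, with a Pearson r of 0.70 across genes, which are not independent replicates. For the 85 HIF targets 77.6% had the same sign, and r was 0.91. Arrays A and D of both groups called 2173 genes higher and 2380 lower, and B and C 2900 and 1654, so that 47.7% and 63.7% of the calls were higher. Both sets kept HIF1A and EPAS1 among the falls: EPAS1 differed by -2.98 over shHIF A and D and -2.73 over B and C, and HIF1A by -0.77 and -0.69. Among named genes the gap between the sets was widest for ZEB2, a mesenchymal repressor, at -0.999 over A and D and -0.022 over B and C, and its call was lost without control B, C or D or shHIF A or D. Among further genes named above, the calls of CXCR4, ELOB, HMGCS1, KEAP1, MXI1, NLRC5, TAP1, PTGS2 and SMAD7 were absent with arrays A and D of both groups only, those of LOXL2, CYBRD1, IFIT1, PFKFB3 and SDHA with B and C of both groups only, and those of NFKB2 and EIF2AK2 with either.

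**Figure D5:**
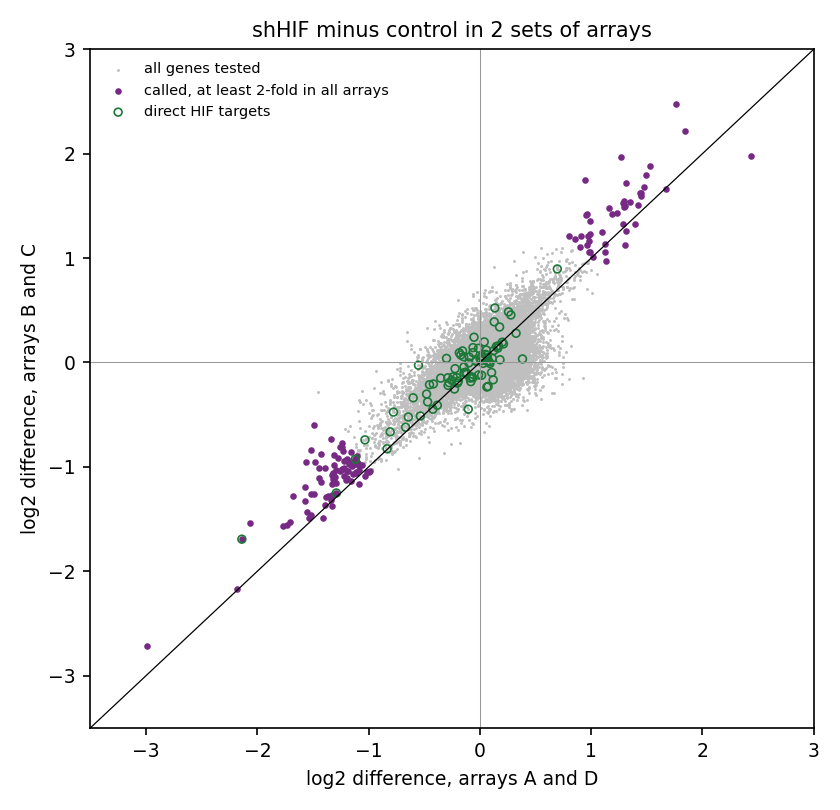
Log2 difference of shHIF minus control for every gene tested, from arrays A and D of both groups (x axis) and arrays B and C of both groups (y axis), with a line of equality, genes called at least 2-fold filled and direct HIF targets as open rings. The 129 filled points, chosen on all arrays of both groups, lie in the lower left and upper right, and the gray cloud of all genes is centred near zero.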

How the data were processed

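The 12 Affymetrix arrays had been labelled from total RNA and summarised by the authors with RMA, per the submitters' processing notes (no version stated there), and the deposited values are log2 signals of 54675 probe sets. Of these, 41097 have 1 gene symbol in the platform annotation, giving 19775 genes. Matching to RefSeq changed 0 of the names. The 1801 probe sets with several symbols and the 11777 with none were left out of gene tests. For genes with several probe sets, the one with the highest mean over 12 arrays was used. Differences of shHIF minus control were fitted with limma 3.58.1 in R 4.3.3, with Benjamini-Hochberg adjustment over 19775 genes. The fit used 3 group means, of the control, shHIF and Sharp1 arrays, over 12 arrays, and moderated variances with a trend. With control and shHIF arrays only, 3299 genes were called higher and 2496 lower. Calls needed an adjusted p under 0.05. The code was tested on simulated data.

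Genes were named by rule: HIF subunits and oxygen sensing, the 20 largest rises and falls with separate arrays, up to 3 called members per list and direction, markers and neighbouring pairs. Other list members named without a call, and further called members beyond 3, were chosen after their values were seen. The comparison, the 42 gene lists and the members were chosen with earlier results of these data known, and so support nothing independently. Alternatives left out arrays and changed the probe set, scaling, filter and variance model. The number of arrays limits the precision.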

Additional observations from a re-analysis of the deposited data

Results flagged for a closer look

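Within each group of 4 arrays, 30 of 546 groups tested had 1 array far from the other 3 (a gap beyond Dixon's 95% critical share of the group's range), or 5.49%, where chance flags about 1 in 20. Standing apart on control A, with the range of the other 3 arrays in brackets, were the log2 signals of ARRDC4 at 5.91 (6.16 to 6.17), IGFBP3 at 10.76 (10.64 to 10.65), PSAT1 at 11.94 (12.00 to 12.01). Standing apart on control B, with the range of the other 3 arrays in brackets, were the log2 signals of ATP11B at 9.26 (9.12 to 9.14), ATP5F1A at 13.74 (13.68 to 13.69), FSCN1 at 7.88 (7.92 to 7.93), SDHC at 10.99 (11.09 to 11.11), TAPBP at 9.29 (9.44 to 9.46). Standing apart on control C, with the range of the other 3 arrays in brackets, were the log2 signals of ATF3 at 6.61 (6.67 to 6.68), TNF at 4.04 (3.80 to 3.83). Standing apart on control D, with the range of the other 3 arrays in brackets, were the log2 signals of ANKRD1 at 11.37 (11.62 to 11.67), ANXA10 at 8.14 (7.83 to 7.85), ARNT2 at 7.61 (7.43 to 7.46), GDF15 at 7.54 (7.09 to 7.14), STEAP3 at 9.43 (9.23 to 9.24), TEAD1 at 12.09 (12.22 to 12.23). Standing apart on shHIF A, with the range of the other 3 arrays in brackets, were the log2 signals of GYS1 at 7.95 (8.13 to 8.16), MXI1 at 9.56 (9.72 to 9.73), RNF141 at 5.71 (6.17 to 6.23). Standing apart on shHIF B, with the range of the other 3 arrays in brackets, were the log2 signals of COL3A1 at 4.49 (4.17 to 4.22), ID3 at 8.96 (8.76 to 8.79), SIAH1 at 9.59 (9.46 to 9.48). Standing apart on shHIF C, with the range of the other 3 arrays in brackets, were the log2 signals of CCN1 at 13.15 (12.95 to 12.96), EDN1 at 8.87 (8.95 to 8.96), RELB at 7.55 (7.27 to 7.32), SQSTM1 at 10.28 (10.33 to 10.33). Standing apart on shHIF D, with the range of the other 3 arrays in brackets, were the log2 signals of KIF23 at 10.25 (10.53 to 10.55), LAMA5 at 9.20 (9.04 to 9.05), TNRC6B at 8.01 (8.24 to 8.28). The actin 3′ minus 5′ signal of shHIF D was 0.62, against 0.90 to 0.94 on the other 3 arrays. Their cause was not tested.

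Probe sets without exactly 1 gene name entered no gene comparison. They were tested only in a limma fit of all 54675 probe sets, adjusted over these. Of 13522 without exactly 1 gene name, 1869 were called at an adjusted p under 0.05 (13.8%). In shHIF cells 8 of those called were at least 2-fold higher and 20 at least 2-fold lower. This share is not on the same footing as the shares of genes, which were adjusted over 19775 genes.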

How the results depend on the processing

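EPAS1 and HIF1A kept their direction and call in 21 alternatives, from -2.99 to -0.95 and from -0.77 to -0.69. Leaving out 1 array at a time gave 2857 to 3673 genes higher, 2283 to 2729 lower, 41 to 45 at least 2-fold higher, 74 to 103 at least 2-fold lower, and 29 to 32 HIF targets lower and 9 to 13 higher. Counts moved by over 1.5 times with arrays A and D of both groups only (2173 genes higher, 5 HIF targets higher), with B and C of both groups only (1654 genes lower) and with the mean of all probe sets (39 genes at least 2-fold lower), and the cause was not tested. The 47.7% of calls higher in A and D against 57.1% with all arrays and 63.7% in B and C show the balance to depend on the arrays used. Centring arrays on their medians gave 53.6%.

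The replicate letters did not pair the arrays, since deviations of same-lettered arrays correlated at 0.039, 0.037, -0.17 and -0.056. No array correlated best with its own letter: control A, B, C and D did so with shHIF D (0.066), C (0.21), A (0.23) and B (0.16). What these larger correlations reflect was not tested. With the letter as a replicate block 3350 genes were higher and 2547 lower.

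Of 5655 values of 270 named called genes, 5367 kept direction and call, 264 kept direction only and 24 changed sign, in 22 genes. Of named genes not called, 21 gained a call in at least 1 alternative. With the mean of a gene's probe sets the sign turned for P4HA2 (-0.25), CYBRD1 (0.16), SDHC (-0.100), ATP5F1A (0.032), CCNA2 (0.10), AGO3 (-0.12), PFKP (0.0022) and EGLN1 (0.067). With the brightest probe set outside the kinds that can bind related transcripts it turned for DAZAP2 (0.034), ELOC (-0.015), SDHC (-0.86), NDUFA2 (-0.041), ATP5F1A (0.16), SC5D (-0.087), KIF23 (-0.033), GDF15 (-0.17), COL4A5 (-0.018), COL3A1 (-0.033), MMP15 (-0.12), FN1 (-0.22), B2M (-0.11), FLT1 (0.069) and MAX (0.25). SMAD4 read 0.0075 with arrays B and C of both groups only. Of the 129 genes with 2-fold changes, 7 lost the call with the brightest probe set outside those kinds: AKR1C1, AKR1C2, C6orf62, DAZAP2, SLC3A1, SLCO4C1 and ZNF395. Dim signal near background limits the size of rises from low values, as for COL4A6.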
